A study of Arabidopsis thaliana with 6 samples.

Results

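The freezing-sensitive Arabidopsis mutant sfr6 was set directly against the chilling-sensitive mutant cls8, at 20 °C and at 4 °C. The 2 sfr6 arrays and the 2 cls8 arrays were paired by temperature, which takes 4 of the 6 arrays of the series and leaves out both wild-type arrays. By its title, the series asks how stress from chilling and from freezing works at the molecular level. Each array carried labelled RNA from 40 to 60 pooled whole seedlings, with 1 array for each line and temperature.

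Both lines were EMS mutants listed under the Col-0 ecotype, and the wild type was Col-0. Seeds were stratified for 4 days at 4 °C, and seedlings were grown at 20 °C on MS medium. At 7 days old, with the first rosette leaves out, they were moved on their plates to a chamber at 20 °C or at 4 °C and kept there in the light for 3 h. The 4 groups are therefore sfr6 at 20 °C, sfr6 at 4 °C, cls8 at 20 °C and cls8 at 4 °C, with the same seedling age and the same 3 h exposure in each. Both cls8 arrays, and neither sfr6 array, are marked in the titles as repeats, so that the genotype and a repeated run cannot be told apart. Only 1 mutant allele of each line was measured. In RNA from whole seedlings, fewer cells of a type and less RNA per cell cannot be told apart either.

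SFR6 encodes MED16, a subunit of the Mediator complex, which links transcription factors to RNA polymerase II. Plants without it activate cold-regulated genes poorly although the CBF transcription factors that bind these genes are made, and they are also known for weak induction of jasmonate and salicylate defence genes. The cls8 mutation lies in the gene for the large subunit of ribonucleotide reductase, the enzyme that makes deoxyribonucleotides for DNA synthesis, and the mutant is known for crinkled leaves and a defect in chloroplast division. Neither mutated gene has a named probe set here, so the genotype labels were not checked on the targeted genes.

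Values are intensities on a linear scale, scaled so that the trimmed mean of each array is 100. The medians of the 4 arrays lay between 41.7 and 44.75. Outlier cells numbered 1101 on the sfr6 array and 922 on the cls8 array at 20 °C, against 517 and 414 at 4 °C. The highest value was 3744 on the cls8 array at 20 °C and between 4593.3 and 5895 on the other 3. Root, guard cell and dividing cell markers bear on the mix of tissues, but only 6 were measured, from lists of 12, 7 and 8. None of the 6 passed the test, against 5.32% of all probe sets, and so few cannot judge the mix. PYK10, an abundant root glucosidase, read 2955.8 and 3155.1 in sfr6 against 2584.8 and 3418.4 in cls8 at 20 °C and 4 °C. The remaining root markers EXPA7 and EXPA18 differed by 0.00 and -0.10 on the log2 scale, the guard cell factor FMA by -0.09, and the mitotic kinases AUR1 and AUR2 by -0.14 and -0.37. No member of the seed marker list was measured, while PAP85, a vicilin-like storage protein outside that list, read 54 and 60.6 in sfr6 against 22.5 and 12.1 in cls8.

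The 2 mutants differed in both directions, and more probe sets were lower in sfr6 than higher. Of 13648 probe sets tested with limma, 726 passed at a Benjamini-Hochberg adjusted p of 0.05, which is 5.32% of those tested. Of these, 250 were higher in sfr6, a share of 1.83%, and 476 were lower, a share of 3.49%. All 726 had the same sign at 20 °C and at 4 °C. A gap between the temperatures adds to the residual of this fit, so a probe set with opposite signs could hardly pass. The shared sign is therefore no separate support. Differences are given on the log2(intensity + 13.9) scale as sfr6 minus cls8, a scale that understates the change of dim genes. The median over all probe sets tested was 0.02, the median size among those that passed was 0.71, and the smallest was 0.46. A difference of at least 1 on this scale was reached by 150 of the 726, 30 of them higher and 120 lower in sfr6.

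Read separately at each temperature, where there is 1 array against 1 and no test, 182 probe sets differed by at least 1 at 20 °C and 238 at 4 °C. At 20 °C, 41 of these were higher in sfr6 and 141 lower, and at 4 °C 67 were higher and 171 lower. Both temperatures showed such a difference in the same direction for 83 probe sets, 13 higher and 70 lower in sfr6, and in opposite directions for 1. The counts rest on a fit with 1 residual degree of freedom. An array could be left out only from a fit that also holds the wild-type arrays, so each such fit changes both choices and is read against the fit of all 6 arrays, in which 372 probe sets passed. From there the number was 231 without sfr6 at 20 °C, 146 without sfr6 at 4 °C, 366 without cls8 at 20 °C and 287 without cls8 at 4 °C. With no filter on dim probe sets 13 passed, all lower in sfr6, and with no term for temperature 1 passed.

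**Figure D1:**
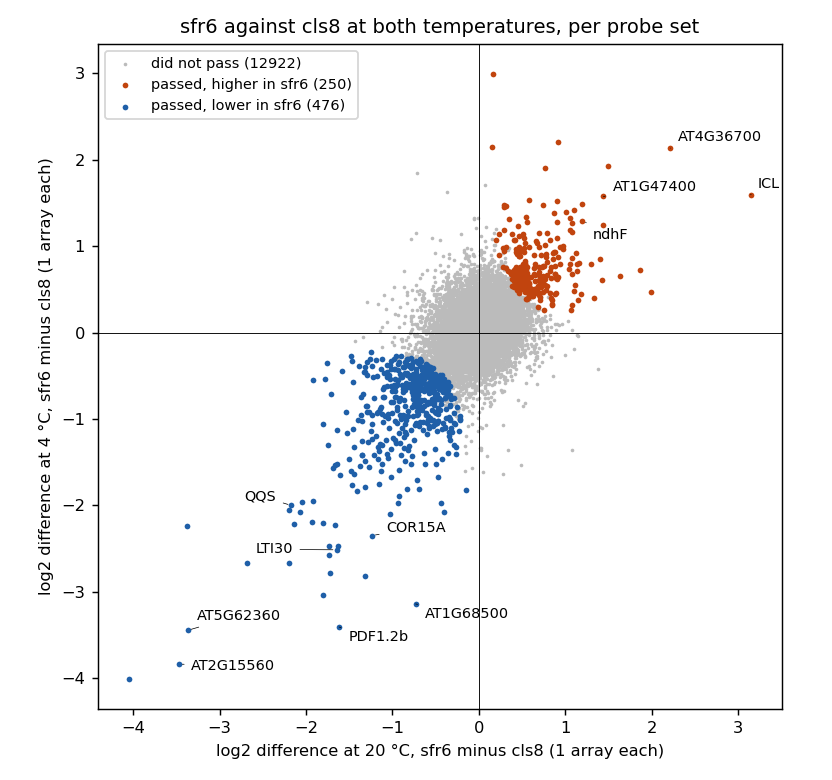
Log2 difference between sfr6 and cls8 at 20 °C (x axis) and at 4 °C (y axis) for the 13648 probe sets tested, each axis from 1 array against 1. Orange points passed as higher in sfr6 (250), blue points passed as lower in sfr6 (476) and grey points did not pass; the blue points reach farther from 0 than the orange ones.

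The wild type gave a view of which mutant stood apart, as a description only. Of the 250 probe sets higher in sfr6, the wild-type mean was nearer to cls8 for 173 (69.2%) and nearer to sfr6 for 77. Of the 476 lower in sfr6, it was nearer to cls8 for 374 (78.6%) and nearer to sfr6 for 102. The wild-type mean lay between the mutants for 177 of the 250 and for 380 of the 476. So for most of these probe sets the sfr6 level lay farther from the wild type than the cls8 level did, and for the rest the cls8 level did. The same shares over all probe sets tested were not taken, so these have no background to be read against.

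Genes of the CBF regulon, which protect cells against freezing and dehydration, were lower in sfr6 than in cls8. Of the 5 members measured, 4 passed as lower and none as higher, against 3.49% of all probe sets lower, with a median difference of -1.21 against 0.02 over all probe sets. The median was -1.13 at 20 °C and -1.43 at 4 °C. The list was chosen with these data known, and 13 of its 18 members had no named probe set.

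LTI30, a dehydrin, read 107.6 at 20 °C and 176.7 at 4 °C in sfr6, and 366.7 and 1074.5 in cls8. Both sfr6 values lay below both cls8 values, with a difference of -2.08 ± 0.17 (moderated SE of limma, 2 arrays per line, limma adjusted p = 3.36e-06). This SE draws mostly on variance pooled over probe sets and is not the spread of the gene's own arrays. COR15A, whose product protects chloroplast membranes during freezing, read 33.2 and 101.3 in sfr6 and 97.2 and 573 in cls8, a difference of -1.79 ± 0.20 (limma adjusted p = 5.58e-05). The cold sfr6 seedlings thus held about the COR15A level of cls8 seedlings that had not been cooled, while the wild type at 20 °C read 48.4. COR15B, its close paralogue, read 71.1 and 313.7 against 171.5 and 793.6, a difference of -1.21 ± 0.13 (limma adjusted p = 3.45e-05). COR47, another dehydrin, read 609.5 and 775.1 against 1055.8 and 2108.1, a difference of -1.103 ± 0.184 (limma adjusted p = 0.00214). The dehydration-induced gene DI21 read 134.7 and 136.1 against 148.5 and 204.1, a difference of -0.33 that did not pass (limma adjusted p = 0.217). Wild-type levels at 4 °C were 847 for LTI30, 423.7 for COR15A, 619.1 for COR15B and 1451.2 for COR47, each between the 2 mutants. At 20 °C they were 365.9, 48.4, 110 and 838.2, also between the mutants, so cls8 read above the wild type at both temperatures. LTI30, COR15A and COR15B passed with any 1 mutant array left out, whereas COR47 did not without the sfr6 array at 4 °C (limma adjusted p = 0.237).

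Of 8 early cold regulators 3 were measured, and 1 passed, as lower, against 3.49% of all probe sets. Their median difference over both temperatures was -0.53, smaller in size than that of the CBF regulon. At 4 °C their median was -0.85 against -1.43, but there STZ (-1.32) was about as far apart as COR15B (-1.30). STZ, a zinc-finger repressor induced within hours of cold, read 22.2 and 124.3 in sfr6 and 29.4 and 332.1 in cls8, so that the lines were close at 20 °C and well apart at 4 °C. It passed with a difference of -0.79 ± 0.20 (limma adjusted p = 0.032), but it no longer passed once the sfr6 array at 4 °C (difference -0.31) or the cls8 array at 4 °C (difference -0.48) was left out, and it had already failed in the fit of all 6 arrays (limma adjusted p = 0.117) and under 5 other settings, among them quantile normalization (limma adjusted p = 0.111). COR27, a cold- and clock-controlled gene, read 13.2 and 170 against 10.9 and 316.6, and AT4G33980 (COR28), its relative, 9.9 and 262.5 against 15.3 and 458.7. Neither passed (limma adjusted p = 0.385 and 0.0647). Both read far higher at 4 °C than at 20 °C in each mutant.

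AT1G68500, a gene of unstated function, was far higher at 4 °C than at 20 °C in cls8 and less so in sfr6. It read 18.4 and 38.2 in sfr6, whereas cls8 read 39.7 and 445.6 and the wild type 52.6 and 456.7. The mutants differed by -0.73 at 20 °C and by -3.14 at 4 °C, or -1.94 ± 0.35 over both (limma adjusted p = 0.00398). It did not pass in the fit of all 6 arrays (limma adjusted p = 0.0695) or after quantile normalization (limma adjusted p = 0.0555). In the fits that left out the sfr6 or the cls8 array at 4 °C the difference was -0.80 or -1.26 and did not pass either.

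**Figure D2:**
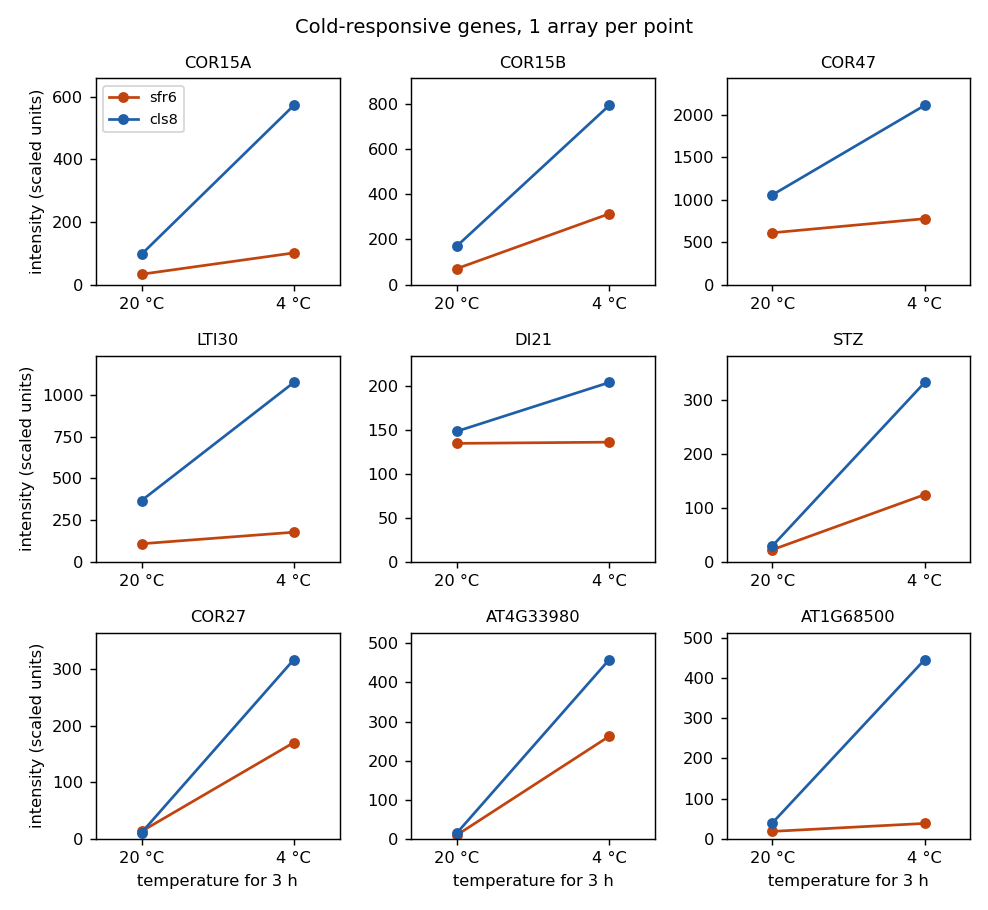
Intensity (scaled units, linear axis) at 20 °C and 4 °C of the 5 measured CBF regulon genes, the 3 early cold regulators and AT1G68500 in sfr6 (orange) and cls8 (blue), 1 array per point. COR15A reached 101.3 in sfr6 and 573 in cls8 at 4 °C, while DI21 stayed between 134.7 and 204.1 on all 4 arrays.

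Plant defensins and thionins are small cysteine-rich peptides that act against microbes, and several are switched on by jasmonate and ethylene. PDF1.2b, of a defensin family widely used as a reporter of jasmonate and ethylene, read 25.9 and 25.3 in sfr6 and 108.2 and 402.1 in cls8 at 20 °C and 4 °C. The wild type read 190.7 and 105.4, above both mutants at 20 °C and between them at 4 °C. All 4 mutant values kept the lines apart, with PDF1.2b differing by -2.51 ± 0.28 (limma adjusted p = 5.58e-05). Its probe set is of the class that may also bind close relatives, and it no longer passed once the sfr6 array at 20 °C or at 4 °C was left out (limma adjusted p = 0.0793 and 0.176). PDF1.2 itself had a separate probe set that fell below the filter, with 1.8 and 6.9 in sfr6 and 44.6 and 137.1 in cls8. AT1G66100, a thionin, read 281.6 and 178.3 against 969.4 and 1133.7, a difference of -2.16 ± 0.17 (limma adjusted p = 3.12e-06), and the wild type read 903.1 and 912.6.

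Not all of these peptides were lower in sfr6. Of 13 small cysteine-rich defence peptides with a named probe set, 5 passed the filter, of which 3 passed the test as lower and 1 as higher, against 3.49% and 1.83% of all probe sets. LCR69 read 836.1 and 906.8 in sfr6 and 1386.7 and 1765.8 in cls8, a difference of -0.84, and PDF1.4 read 18.6 and 16.7 against 29.9 and 70.3, a difference of -0.95. Both calls held in only 1 of the 4 fits that left out an array, and PDF1.4 did not pass in the fit of all 6 arrays (limma adjusted p = 0.114). LCR68, of the same family, went the other way, with 821.6 and 866.9 in sfr6 and 351.7 and 300.8 in cls8, a difference of 1.34 ± 0.14 (limma adjusted p = 3.7e-05). For LCR68 the wild type read 882.1 and 870.4, close to sfr6, so that cls8 was the line that stood apart. LCR67, also below the filter, read 19.6 and 43.9 in sfr6 and 7.4 and 7.5 in cls8.

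AT5G62360, an inhibitor-like protein of the invertase and pectin methylesterase inhibitor family, showed one of the widest gaps. It read 7.3 and 80.5 in sfr6 and 205.3 and 1014.8 in cls8, a difference of -3.41 ± 0.13 (limma adjusted p = 9.57e-10). The wild type read 102 and 647, and all 3 lines were higher at 4 °C than at 20 °C. AT3G28220, a protein with TRAF-like domains, read 81.9 and 58.3 against 320.2 and 577.8, a difference of -2.42 ± 0.21. AT1G52000, a jacalin-type lectin, read 30.5 and 5.7 against 97.2 and 124.7, a difference of -2.07 ± 0.25. AT2G16005, with a lipid-recognition domain, read 31 and 24.4 against 174 and 147.2, a difference of -2.07 ± 0.15. The secreted peroxidase AT5G64120 read 138.6 and 121.3 against 478.2 and 387.3, a difference of -1.63 ± 0.13. For each of these 5 genes the wild-type mean was nearer to cls8, and each passed with any 1 array left out. AT1G67865, of unstated function, followed them with 7.5 and 12 against 74.6 and 87.3, a difference of -2.01.

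Another set of genes on the lower side stood apart because cls8 was high, not because sfr6 was low. AT2G15560 read 20 and 6 in sfr6, and wild-type values of 29.9 and 17.9 were close to these, against 362.7 and 270.5 in cls8, a difference of -3.66 ± 0.15 (limma adjusted p = 2.06e-09). AT5G26270 read 303.8 and 276.8 in sfr6, with 295.3 and 263 for the wild type, against 1196.1 and 1315.6 in cls8, a difference of -2.06 ± 0.14 (limma adjusted p = 9.64e-07). AT5G03090 read 11.2 and 16.7 in sfr6, with 24.7 and 19.1 for the wild type, against 80.8 and 103.8 in cls8, a difference of -1.93. The unnamed probe set 266680_s_at read 6.5 and 3.3 in sfr6, with 1.8 and 0.7 for the wild type, against 324.4 and 262.1 in cls8, a difference of -4.03. For each of the 4, sfr6 and the wild type lay close together and cls8 lay above both at both temperatures. The unnamed probe set 248377_at was of the first kind, with 54.4 and 82.2 in sfr6, 695.3 and 439.7 in cls8 and 613.8 and 488.6 in the wild type.

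QQS, an orphan gene of Arabidopsis that affects starch content, belonged with the genes high in cls8. It read 53.9 and 29.9 in sfr6, with 49.5 and 19.3 for the wild type, against 291 and 161.4 in cls8, a difference of -2.08 ± 0.14 (limma adjusted p = 6.58e-07). ATSPS4F, a sucrose-phosphate synthase, was the other measured member of the starch and sugar list and read 115.3 and 275.5 against 241.7 and 343.2, a difference of -0.64 (limma adjusted p = 0.0239). That call held in only 1 of the 4 fits that left out an array and was absent from the fit of all 6 arrays (limma adjusted p = 0.0913).

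**Figure D3:**
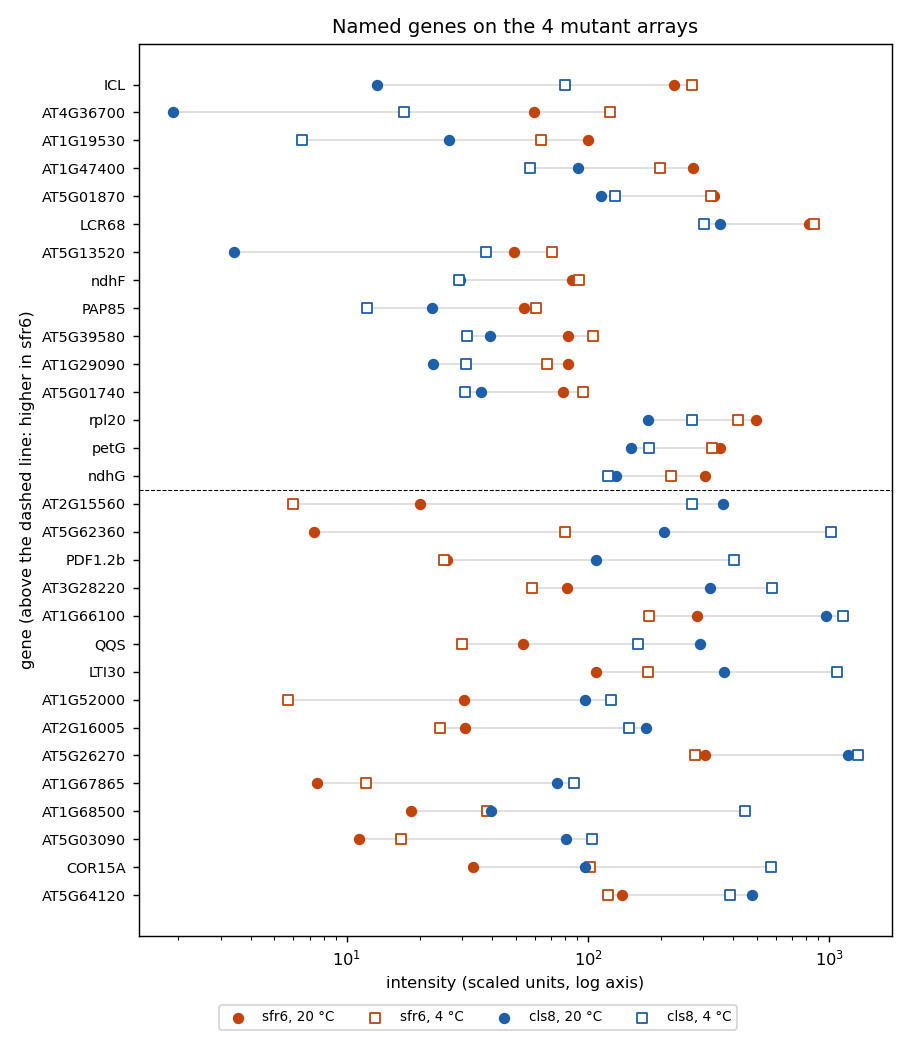
Intensity (scaled units, log axis) of the 15 named genes with the largest difference higher in sfr6 (above the dashed line) and the 15 lower in sfr6 (below it) on the 4 mutant arrays, 1 array per symbol. The values of the 2 lines overlap for COR15A only: its sfr6 value at 4 °C (101.3) lies above its cls8 value at 20 °C (97.2).

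On the higher side, ICL, isocitrate lyase, had the largest difference among named genes. The enzyme belongs to the glyoxylate cycle, by which a young seedling turns stored oil into sugar. ICL read 226.8 and 270.2 in sfr6 at 20 °C and 4 °C, 13.3 and 80.1 in cls8, and 20.8 and 30.8 in the wild type, so that both sfr6 arrays were above the other 4. The difference was 2.37 ± 0.25 (limma adjusted p = 3.3e-05), made up of 3.15 at 20 °C and 1.596 at 4 °C. Malate synthase, its partner enzyme, was not analysed here. AIM1, an enzyme of fatty acid oxidation, was the only other member of that list measured and differed by -0.06.

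AT4G36700, of the cupin superfamily, read 59.5 and 123.2 in sfr6 against 1.9 and 17.3 in cls8 and 3.4 and 4 in the wild type, a difference of 2.18 ± 0.17 (limma adjusted p = 2.07e-06). PAP85, a vicilin-like storage protein, read 54 and 60.6 against 22.5 and 12.1, a difference of 1.21 ± 0.19 (limma adjusted p = 0.00106). PAP85 passed in only 1 of the 4 fits that left out an array, AT4G36700 in all 4. AT1G29090, a papain-like cysteine protease, read 82.6 and 67.3 against 22.7 and 31.1, a difference of 1.13 that did not pass once the sfr6 array at 20 °C was left out (limma adjusted p = 0.0943).

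AT1G47400, a small peptide that promotes iron uptake (IMA1), read 270.9 and 198.6 in sfr6 and 90.9 and 57.4 in cls8, a difference of 1.51 ± 0.13 (limma adjusted p = 6.1e-06). Every sfr6 value was above every value of the other 2 lines, the wild type reading 119.7 and 45.4. The other 2 measured members of the iron list did not pass. PYE, a regulator of the response to iron shortage, read 108.8 and 72 against 78.3 and 48.2, a difference of 0.44 (limma adjusted p = 0.11), and AT3G13610, an enzyme of coumarin synthesis, differed by 0.09.

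Among further genes higher in sfr6, the lipid transfer protein AT5G01870 read 330.9 and 324.1 against 113.4 and 129.2, a difference of 1.34 ± 0.13 (limma adjusted p = 1.61e-05). AT1G19530 read 100.1 and 63.8 against 26.5 and 6.5, a difference of 1.71. The peroxidase AT5G39580 differed by 1.13 and AT5G01740 by 1.09. Without the sfr6 array at 4 °C the last 3 did not pass (limma adjusted p = 0.0644, 0.0963 and 0.144). The M1-family peptidase AT5G13520 read 49.3 and 71.1 against 3.4 and 37.6, a difference of 1.296 that passed in only 1 of the 4 fits with an array left out and not in the fit of all 6 arrays (limma adjusted p = 0.0779). The tau-class glutathione transferase GSTU22, a detoxifying enzyme, read 186.3 and 210.9 against 106.6 and 119.1 and was the 1 of 8 measured members of that class to pass, against 5.32% of all probe sets, with a difference of 0.74, a call that was lost without either sfr6 array (limma adjusted p = 0.0667 and 0.1). The unnamed probe sets 256766_at and 253767_at differed by 1.58 and 1.56. The first of these rested on the sfr6 array at 4 °C, with 227 there against 16.4 to 31.7 on the other 3 mutant arrays, and it did not pass in the fit of all 6 arrays (limma adjusted p = 0.152), with either other pseudocount, after quantile normalization or with no intensity trend. Neither passed without the sfr6 or the cls8 array at 4 °C.

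Transcripts of the chloroplast genome gave the highest count of any list on the higher side. The plastid genome encodes part of the photosynthetic machinery, an NADH dehydrogenase-like complex, the plastid RNA polymerase and some ribosomal proteins, and the plastid polymerases transcribe it. Of 69 plastid-encoded transcripts measured, 15 passed as higher in sfr6 and none as lower, a share of 21.7% against 1.83% of all probe sets. The difference was positive for 67 of the 69, against 7367 of all 13648, and its median was 0.26. At 20 °C the median was 0.40 and at 4 °C it was 0.12. These transcripts share an organelle, are often made as joint precursors and are not independent of each other. Most of them read far above the array medians, and no background of like brightness was taken. The 6 measured nuclear photosynthesis genes, most of them bright, also had a positive median at 20 °C, 0.26, against -0.37 at 4 °C. The part of brightness in the plastid shares was not tested.

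The NADH dehydrogenase-like complex, which takes part in cyclic electron flow, had the most members that passed, 5 of 10, with a median of 0.53. Its subunit ndhF read 85.4 and 91.8 in sfr6, with 87.5 and 86 for the wild type, against 29.4 and 29.2 in cls8. Sfr6 and the wild type were thus close and cls8 was low at both temperatures, with a difference of 1.25 ± 0.16 (limma adjusted p = 0.000196). The subunit ndhG read 304 and 220.6 against 130.5 and 121.2, a difference of 0.97 ± 0.13 (limma adjusted p = 0.000434), and ndhE read 996.1 and 908 against 544 and 497.2, a difference of 0.85 ± 0.15 (limma adjusted p = 0.00261). The subunits ndhK and ndhH differed by 0.59 and 0.51 and passed narrowly (limma adjusted p = 0.0291 and 0.0451). The SE was larger for the brightest plastid transcripts, for example 0.29 for psbA against 0.13 for ndhG, so these needed a wider gap to pass. No plastid transcript that read above 1101.9 on any of the 4 mutant arrays passed. How far the counts by complex follow brightness was not tested.

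In the cytochrome b6f complex, which carries electrons between the photosystems, 2 of 6 transcripts passed. The small subunit petG read 353 and 324.8 in sfr6 and 150.7 and 179.2 in cls8, a difference of 0.98 ± 0.13 (limma adjusted p = 0.000347), and petD differed by 0.70. In photosystem II, 3 of 15 passed, led by psbT, with 419.1 and 477.2 against 221.9 and 244.1 and a difference of 0.90 ± 0.13 (limma adjusted p = 0.000504). The others were psbL and psbB, with differences of 0.52 and 0.51. None of the 5 photosystem I transcripts passed, with a median of 0.22, and 1 of the 6 ATP synthase transcripts did, atpH, with a difference of 0.60.

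Of the large ribosomal subunit, rpl20 was the 1 of 7 to pass, with 496.6 and 418.9 against 176.2 and 269.3 and a difference of 1.02 ± 0.17 (limma adjusted p = 0.00169). Of the small subunit, rps14 was the 1 of 8, with 66.6 and 91.1 against 37 and 36.4 and a difference of 0.86. The 4 RNA polymerase transcripts had a median of 0.29 and none passed. The rbcL transcript, for the large subunit of Rubisco, the carbon-fixing enzyme, read 857.3 and 1047.3 in sfr6, with 880.6 and 1070.3 for the wild type, against 389.4 and 708.8 in cls8, a difference of 0.83 ± 0.16 (limma adjusted p = 0.00725). The photosystem I assembly factor ycf3 read 553.9 and 541.9 against 242.1 and 413.5, a difference of 0.76. For rbcL, ycf3, rpl20 and petD the gap was wider at 20 °C than at 4 °C, while ndhF, psbT and ndhE had about the same gap at both.

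Other values moved with the plastid result, and their part in it was not tested. The 25S rRNA control read 481.5 on the cls8 array at 20 °C against 2558.9 on the sfr6 array at 20 °C, and 1669.5 and 1664.8 at 4 °C. The ratio of the 3′ to the 5′ actin control was 1.47 on the cls8 array at 20 °C and between 2.03 and 2.08 on the other 3, while the GAPDH ratio lay between 1.06 and 1.097 on all 4. Without that array, in the fit that includes the wild type, 8 plastid transcripts passed and the median was 0.12. Leaving out the sfr6 array at 20 °C left 4, leaving out the sfr6 array at 4 °C left 3, and leaving out the cls8 array at 4 °C left 13 with a median of 0.47. In the fit of all 6 arrays 8 passed, without ndhK, ndhH, petD, psbL, psbB, atpH and ycf3. With the cls8 array at 20 °C left out, rpl20 differed by 0.60 (limma adjusted p = 0.0865), ycf3 by 0.37 and petD by 0.40, and rpl20 passed in only 1 of the 4 fits that left out an array. The transcripts ndhF and petG passed in each of these fits.

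**Figure D4:**
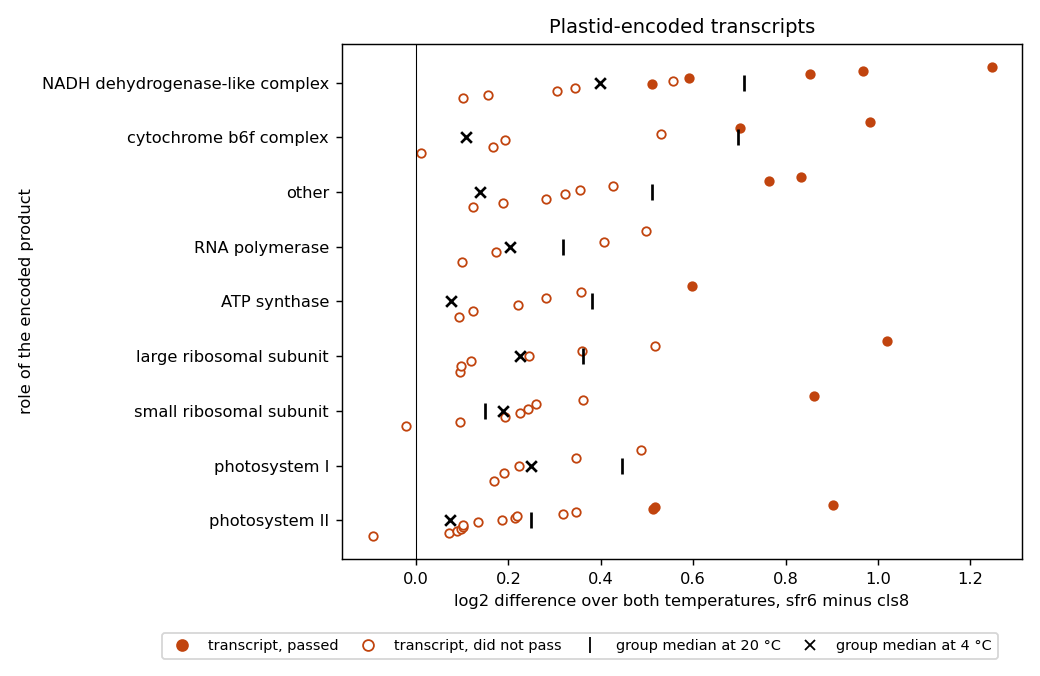
Log2 difference over both temperatures (x axis, sfr6 minus cls8) of the 69 plastid-encoded transcripts, grouped by the role of their product, with filled circles for the 15 that passed and open circles for the 54 that did not. The bar and the cross mark each group's median at 20 °C and at 4 °C; 8 of the 9 medians lie farther from 0 at 20 °C, the small ribosomal subunit being the exception.

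Of 6 measured nuclear genes for photosynthesis, 1 passed, as lower in sfr6, against 3.49% of all probe sets passing as lower. This was LHCB4.3, an antenna protein of photosystem II, with 57.2 and 56.5 against 91.8 and 91.5 and a difference of -0.58 (limma adjusted p = 0.0332). It did not pass in the fit of all 6 arrays (limma adjusted p = 0.0582), after quantile normalization (limma adjusted p = 0.0523) or in any of the 4 fits that left out an array. The median of the 6 was -0.04, with 0.26 at 20 °C and -0.37 at 4 °C, beside plastid medians of 0.40 and 0.12. Both lists thus had the higher median at 20 °C, and the difference between them was not tested. Among 3 measured chlorophyll synthesis genes 1 passed, also as lower, beside the same 3.49%. This was PORB, a light-dependent protochlorophyllide oxidoreductase, which read 1030.5 and 346 in sfr6 and 1736.4 and 836.7 in cls8, a difference of -0.99 ± 0.17 (limma adjusted p = 0.00234). The wild type read 1705.7 and 909.4, close to cls8, and the gene did not pass once the sfr6 array at 4 °C was left out (limma adjusted p = 0.342).

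The clock gene GIGANTEA (GI), also needed for timely flowering, was the 1 measured member of the clock list. It read 166 and 244.9 in sfr6 and 316.6 and 401.6 in cls8, a difference of -0.78 ± 0.13 (limma adjusted p = 0.00177), and it did not pass without the sfr6 array at 20 °C (limma adjusted p = 0.108). The wild type lay between the mutants, with 251.5 and 298.1.

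In 3 cell wall and chromatin families 1 member each passed as lower in sfr6, of 9, 6 and 7 measured, against 3.49% of all probe sets. Among 9 expansins, which loosen walls, EXPA8 read 318.1 and 68.7 against 524.5 and 276.2, a difference of -1.25 ± 0.19 (limma adjusted p = 0.000997), and its call was lost without either array at 4 °C. Among 6 xyloglucan endotransglucosylases XTH16 differed by -0.53, and among 7 histone genes HTB1, a histone H2B, differed by -0.64. Neither XTH16 nor HTB1 passed in the fit of all 6 arrays (limma adjusted p = 0.0751 and 0.0871) or in any fit that left out an array. No member passed among 9 ATG8 autophagy genes, 7 tubulins, 2 flavonoid genes, 2 Mediator subunits, 1 heat shock protein, 1 DNA replication gene and 1 response regulator. The lists for salicylate defence, abscisic acid response, flowering, lipid transfer proteins (a list that does not hold AT5G01870), plastid sigma factors and mitochondrial transcripts had no measured member. The measured Mediator subunits AT2G22370 and AT5G20170, neither of them MED16, differed by 0.02 and 0.04.

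**Figure D5:**
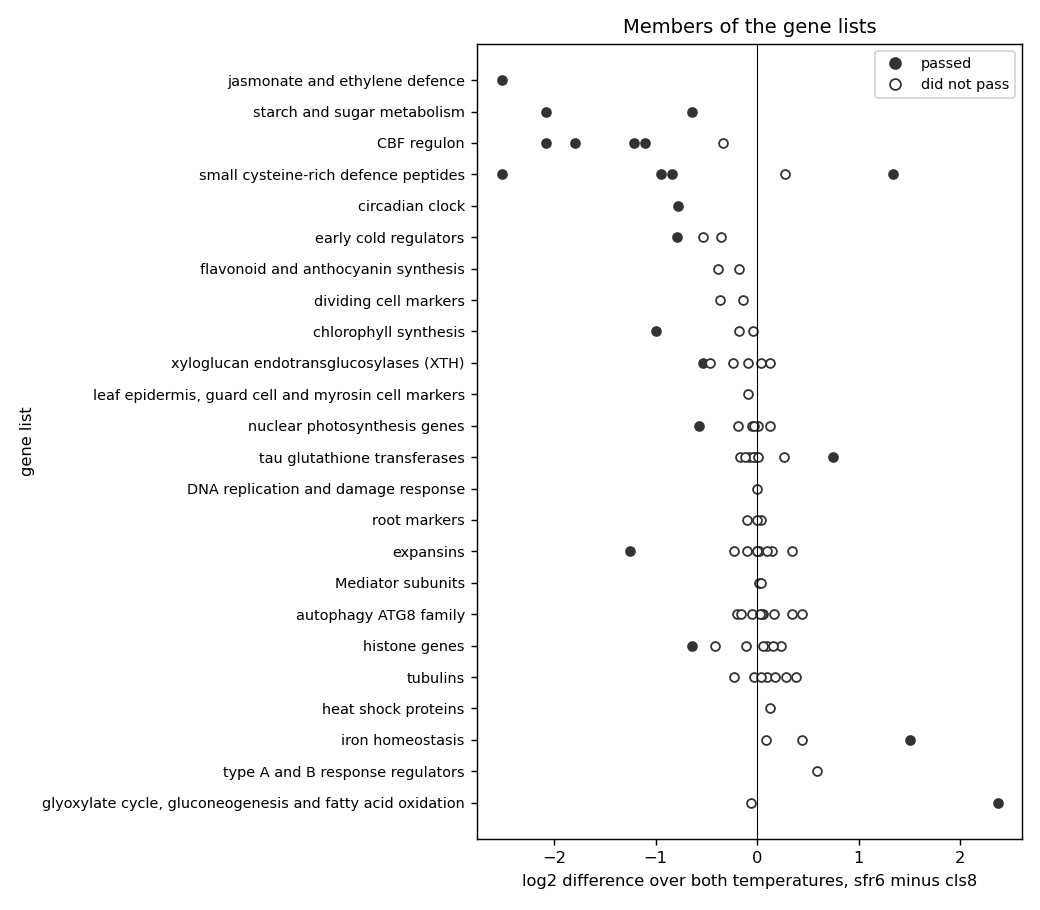
Log2 difference over both temperatures (x axis, sfr6 minus cls8) of each measured member of the gene lists, without the plastid transcripts, with filled circles for members that passed and open circles for those that did not. In the CBF regulon 4 of 5 circles are filled and all 5 lie below 0, whereas the 9 ATG8 genes and the 7 tubulins lie around 0 with none filled.

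Some differences depended on temperature, which 1 array per cell allows to be shown only as values. Of 154 named genes with a difference of at least 1 at either temperature, 12 had opposite signs at 20 °C and 4 °C. The gap between the mutants, with sfr6 lower, widened in the cold for AT1G68500, PDF1.2b, AT1G52000 and AT1G48100. The last read 21.2 and 21.8 in sfr6 against 33.7 and 126.3 in cls8, and 27.5 and 74.1 in the wild type. For PDF1.2b and AT1G48100 sfr6 was about the same at both temperatures, and cls8 was higher at 4 °C. GAT1_2.1, a glutamine amidotransferase-like gene, read 37.4 and 5.7 against 54 and 68.7. AT4G34950 went the other way, with 64.5 and 669.8 against 283.5 and 990, so that a difference of -1.92 at 20 °C shrank to -0.55 at 4 °C. For ICL the gap narrowed in the cold, as given above. The remaining genes named under this rule had opposite signs and were AT1G64890, AT1G13730, AT5G11070, 5-FCL, AT5G19240, AT5G15950, AT1G19650, AT1G53450 and AT2G34050. For AT5G11070, AT5G19240 and AT5G15950 the lines hardly differed at 20 °C, so this is no reversal. AT5G15950, for example, read 104 and 580.8 in sfr6 and 108.6 and 224.1 in cls8, so the lines were alike at 20 °C and sfr6 was higher at 4 °C.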

How the data were processed

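The submitters' intensity values, deposited per array on a linear scale, have a trimmed mean of 100 on each array when the lowest and highest 2% are left out, which was found from the values. The sources used here do not name the algorithm behind them. Of 22810 probe sets, 64 controls were set aside and 22746 were left. A platform table gave 1 gene for 13513 of them, several for 503 and none for 8730, and 13436 matched RefSeq names of the TAIR10.1 assembly. Only probe sets with 1 gene were named, and a gene without one was not analysed here.

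Intensities were transformed as log2(intensity + 13.9), the 25th percentile of the 4 mutant arrays, and probe sets with a mean at or above the 40th percentile were kept, which left 13648. These were fitted by limma 3.58.1 under R 4.3.3, using lmFit and a trended eBayes, with terms for line and temperature on the 4 arrays. The fit had 1 residual degree of freedom, made of noise between arrays plus any cold response not shared by both lines, beside a prior of 13.5. Each SE after ± is moderated, so it draws mostly on that prior, pooled over probe sets, and the p-values rest on it. Tests were two-sided, adjusted by Benjamini-Hochberg, with a threshold of 0.05. An exact permutation test of 2 arrays against 2 could not go below p = 0.333. The fit was also run on data simulated from its own model, without a cold response that differs between lines. That run cannot judge the fit on these arrays. The number of arrays limits the precision. Since the arrays of a line are at different temperatures, the p-values hold no measure of the spread between replicate seedling pools of 1 line and temperature.

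The named genes are the 15 largest differences in each direction among genes that passed with 1 sign at both temperatures, measured members of the gene lists, the 2 largest unnamed probe sets in each direction, and up to 8 genes in each direction with the largest change of the difference between temperatures. A measured member has a named probe set that passed the filter. The comparison, the lists and the rules were chosen with earlier results of these data known. Alternatives were other pseudocounts, filters and scalings, no intensity trend, no term for temperature, all 6 arrays, and leaving out each mutant array in a fit with the wild-type arrays. Promoter sequences were not used here.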

Additional observations from a re-analysis of the deposited data

Results flagged for a closer look

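The following genes had a difference between sfr6 and cls8 of opposite sign at 20 °C and 4 °C. For AT5G11070, AT5G15950 and AT5G19240 the difference at 20 °C was only -0.005, -0.06 and -0.06, so the lines were alike there and differed at 4 °C. With 1 array for each line and temperature the change was not tested. As the difference at 4 °C less that at 20 °C, on the log2 scale, sfr6 lost ground in the cold in AT1G64890 (-1.92) and AT1G13730 (-1.80, or -1.19 with the median pseudocount). For AT1G64890 the sfr6 arrays read 61.8 and 95.4 and the cls8 arrays 48.3 and 326.2, and AT1G13730 read 59.7 and 115.7 against 14.4 and 159.7. Sfr6 gained ground in AT2G34050 (1.54, or 2.50 with no pseudocount and 0.88 with the median one), AT1G53450 (1.502), AT1G19650 (1.39), AT5G15950 (1.38), AT5G19240 (1.38), 5-FCL (1.35) and AT5G11070 (1.33).

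AT5G19240 read 129.8 and 508.1 in sfr6 against 136 and 195.9 in cls8. AT5G11070 read 198.9 and 115 in sfr6 against 199.6 and 37.6 in cls8, with wild-type values of 200.8 and 42.5 close to cls8. AT2G34050, AT1G53450, AT1G19650 and 5-FCL were low on the sfr6 array at 20 °C, with 9.7, 30.2, 27.5 and 46.8 there against 36.8, 85.5, 69.1 and 114.3 on the cls8 array at 20 °C. At 4 °C the same 4 genes read 51.8, 70.8, 68 and 72 in sfr6 against 34.7, 53.5, 48.8 and 57.1 in cls8. The sfr6 array at 20 °C also carried 1101 outlier cells, the most of the 6 arrays, and the part of this in those 4 values was not tested.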

How the results depend on the processing

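Across 13 other settings 73 genes and probe sets were followed, a set that is not the same as the genes named here. The filter at the 60th percentile kept 53 of them. None changed sign, but many calls depended on the settings. With another filter, all 6 arrays, no temperature term or no intensity trend the difference itself stays the same, so its sign could not change there. The 726 passing probe sets became 13 with no filter (0 higher and 13 lower in sfr6, with 2692 at an unadjusted p under 0.05), 478 with quantile normalization (157 higher), 1093 with the array medians set equal (426 higher), 372 with all 6 arrays (104 higher, 268 lower), and 1 with no temperature term (0 higher, 1 lower, with 686 at an unadjusted p under 0.05, all by limma); with no intensity trend 155 were higher. The 1 was 266680_s_at. Leaving out 1 mutant array from the fit of all 6 gave 146 to 366, of which 29 to 122 were higher and 117 to 244 lower. The plastid count of 15 was 0 with no filter and with no temperature term, 8 with all 6 arrays and 3 to 13 with 1 array left out, where the median of 0.26 ranged from 0.12 to 0.47. The CBF regulon count of 4 was 0 with no filter and with no temperature term and 3 to 4 with 1 array left out. Differences of at least 1 numbered 307 at 20 °C, 396 at 4 °C and 129 at both when no pseudocount was added, against 90, 132 and 46 when it was raised to the median of 43.1. The cause of these moves was not tested. The 16 changes of the difference between temperatures, run under 4 settings, did not change sign, and 9 of 64 values moved by over 1.5 times, all with another pseudocount. With no pseudocount and with the median one these were 2.50 and 0.88 for AT2G34050, -3.06 and -0.93 for GAT1_2.1, -2.34 and -0.91 for ICL and -2.78 and -0.85 for AT1G52000, and AT1G13730 gave -1.19 with the median one.

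With no filter, AT2G15560, AT5G62360, QQS, AT2G16005, AT5G26270, AT5G64120 and 266680_s_at still passed among the genes and probe sets followed through the settings. In all 4 fits with 1 array left out, 13 of the 15 named genes lower in sfr6 passed, the exceptions being AT1G68500 and PDF1.2b, and 7 of the 15 higher did. No paired analysis by replicate number was possible because each line and temperature has 1 array. The promoter motifs that had been planned were not run.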

Other observations

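Some genes outside the lists and the naming rule were picked after their values were seen, and not all are described here. Among those not described, PPDK, BGLU19 and CCS were higher in sfr6, by 0.58, 0.78 and 0.63, and the rest were lower. PPDK, BGLU19 and CCS did not pass in the fit of all 6 arrays. BGLU44, a beta-glucosidase, read 258.7 and 164.6 in sfr6 at 20 °C and 4 °C and 590.6 and 423.9 in cls8, a difference of -1.22 ± 0.13 (limma adjusted p = 3.45e-05), and it passed with any 1 mutant array left out. UGT72B3, a glucosyltransferase of small molecules, read 17.9 and 36.6 against 50.4 and 114.2, a difference of -1.18 ± 0.17 (limma adjusted p = 0.000504) that did not pass once the sfr6 array at 4 °C was left out (limma adjusted p = 0.0689). The AP2/ERF transcription factor gene tny read 52.8 and 67.2 against 128.7 and 122.5, a difference of -0.92 ± 0.15 (limma adjusted p = 0.00156) that did not pass once the sfr6 array at 20 °C was left out (limma adjusted p = 0.0701). For BGLU44, UGT72B3 and tny the sfr6 values lay below the cls8 values at both temperatures, and the wild-type mean was higher than the sfr6 mean.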
